A study of Drosophila melanogaster with 2 samples.

Results

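The genes of the cytoplasmic ribosomal proteins of Drosophila melanogaster were examined for binding of the chromatin protein ADD1. They were chosen by symbol, as the protein-coding genes named RpL, RpLP or RpS with a number and letters, plus sta, which encodes the small subunit protein known as SA. The rule found 86 of the 13921 protein-coding genes on the 6 chromosome arms, 48 of the large subunit and 38 of the small subunit. Copies with a hyphen in the symbol, such as RpL22-like, fall outside the rule and enter only where a pair of copies is compared. Binding was measured by chromatin immunoprecipitation and sequencing in whole embryos of 0 to 24 h, males and females pooled, from 1 transgenic line in which GFP is fused to the C terminus of ADD1. Chromatin was precipitated through the GFP tag with anti-GFP antibody. There were 2 biological replicates in a single group, and the control used for peak calling was not analysed here. The values therefore speak for 1 line, no second condition exists, and no difference between conditions was tested. In whole embryos, binding in fewer cells and weaker binding per cell cannot be told apart.

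A ribosome joins a large and a small subunit, each built of ribosomal RNA and many proteins that are needed in nearly equal amounts. The genes of these proteins are among the most strongly transcribed in growing tissue, and loss of a single copy of many of them gives the Minute phenotype in flies, with slow development and short, thin bristles. Their promoters in Drosophila are known for a TCT initiator, a pyrimidine-rich sequence at the transcription start that takes the place of the usual initiator and works with a TBP-related factor instead of TBP. ADD1 carries an ADD domain, a zinc-binding fold of chromatin proteins, and has been described as a partner of HP1a, the main protein of heterochromatin.

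Promoters of some strongly bound members are shown first, because the pyrimidine-rich start can be read on them. A gene was given each peak with a summit at most 500 bp from any of its annotated starts. The sequences come from the RefSeq genome, Release 6, the build of the peak coordinates, and run from 60 bases before the start to 20 bases after it, 5′ to 3′ on the strand of the gene. Members whose stretch held more than 30 exonic bases are not shown, and others are left out for length. Capitals mark the words used for the TCT initiator, wherever they lie in the stretch. Such a word is CTTT with 1 pyrimidine before it and 1 after it, as in CCTTTC or its relative with T at both ends, TCTTTT.
RpL14, chr3L:8600946-8601025, plus strand: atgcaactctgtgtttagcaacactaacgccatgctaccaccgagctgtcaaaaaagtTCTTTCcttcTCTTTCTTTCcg
RpL23A, chr3L:1668635-1668714, minus strand: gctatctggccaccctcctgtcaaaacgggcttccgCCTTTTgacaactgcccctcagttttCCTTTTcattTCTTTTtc
RpS28b, chrX:9554563-9554642, plus strand: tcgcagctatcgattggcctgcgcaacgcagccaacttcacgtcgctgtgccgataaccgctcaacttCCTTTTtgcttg
RpL34b, chr3R:9401207-9401286, minus strand: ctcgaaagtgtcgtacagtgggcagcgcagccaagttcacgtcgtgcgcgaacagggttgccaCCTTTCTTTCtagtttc
RpL13A, chr3R:5624414-5624493, plus strand: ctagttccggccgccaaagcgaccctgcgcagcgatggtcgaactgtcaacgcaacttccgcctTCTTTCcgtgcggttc
RpS25, chr3R:11216268-11216347, minus strand: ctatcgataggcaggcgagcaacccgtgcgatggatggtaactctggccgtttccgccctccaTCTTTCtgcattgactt
RpL28, chr3L:3222941-3223020, minus strand: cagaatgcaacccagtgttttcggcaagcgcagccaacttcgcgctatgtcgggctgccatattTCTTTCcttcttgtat
RpL22, chrX:765111-765190, minus strand: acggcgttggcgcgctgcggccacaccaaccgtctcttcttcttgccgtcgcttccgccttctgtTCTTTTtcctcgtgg

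In each of these 8 stretches a word stood near the annotated start, which is 20 bases before the end. The ADD1 summit lay 34 bases upstream of this start in RpL14, 97 in RpL23A, 25 in RpS28b, 67 in RpL34b, 41 in RpL13A, 38 in RpS25, 21 in RpL28 and 66 in RpL22. In RpL23A, RpL34b and RpL22 the summit thus fell outside the printed stretch. These 8 genes do not stand for all members in this respect. Of the 72 members with a peak in the main list described below, 39 had an upstream summit and 33 did not.

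A complete TCT word was present at most 10 bp from a start in 61 of the 86 members, or 70.9%, beside 3.03% of all protein-coding genes. The C that opens the CTTT core stood at a median of 4 bases downstream of the start in those 61 genes, with a range of −4 to 6. The whole word had to lie within 10 bp of the start, so 6 is the limit of the search and bounds the median as well. With 25 bp on both sides the word was found in 79 members, or 91.9%, beside 8.38%. The 7 members without it were RpL10Aa, RpS10a, RpS15Ab, RpS19b, RpS2, RpS20 and sta. The word TATAAA, searched on the strand of the gene from 20 to 40 bp upstream of a start, occurred in RpL39 alone, or 1.16% of members, beside 8.49% of all genes.

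ADD1 summits stood at the starts of most of these genes. The main list used here is the authors' IDR list, named for the irreproducible discovery rate by which peaks of replicates are filtered. In it, 72 of the 86 members, or 83.7%, had a summit within 500 bp of a start, beside 26.1% of all protein-coding genes. The large subunit had 40 of 48 such genes, or 83.3%, and the small subunit 32 of 38, or 84.2%. Within 200 bp the count was 71, beside 21.8% of all genes, and within 50 bp it was 55 members, or 64.0%, beside 11.8%. The 1000 strongest IDR peaks reached 38 members, 23 of the large and 15 of the small subunit, which is 44.2% of members beside 5.34% of all genes.

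Each replicate list was also counted on its own. The list of replicate 1 had a summit at 76 members, or 88.4%, where 38.1% of all genes had one, and the list of replicate 2 at 81 members, or 94.2%, where 44.8% of all genes had one. The list called on both alignments together reached 78 members, or 90.7%, beside 37.9%. A summit in both replicate lists was found for 74 members, in replicate 1 only for 2, in replicate 2 only for 7 and in neither for 3. Those 3 were RpL34a, RpL10Aa and RpL36A. Replicate 2 thus also listed 97.4% of the members of replicate 1, and replicate 1 listed 91.4% of those of replicate 2. Over all protein-coding genes, 4818 were in both lists, 483 in replicate 1 only, 1412 in replicate 2 only and 7208 in neither, which gives 90.9% and 77.3%.

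**Figure D1:**
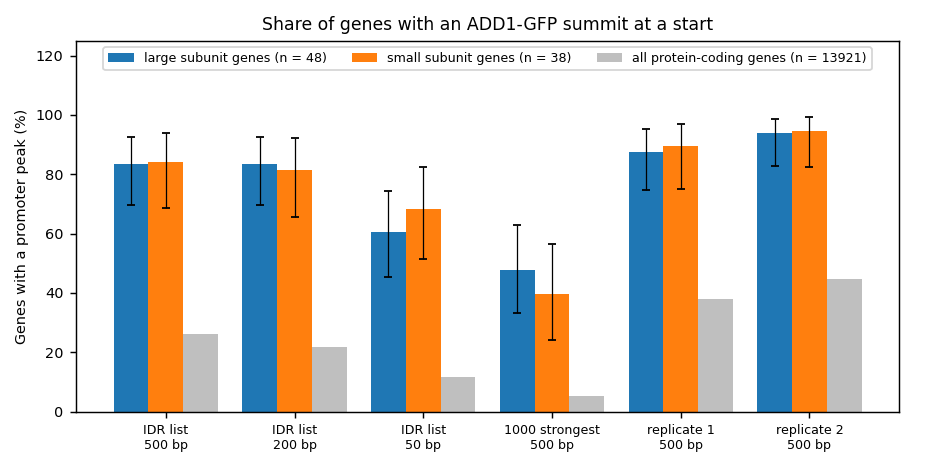
Share of genes (y axis, %) with an ADD1-GFP summit near an annotated start, for the large subunit genes, the small subunit genes and all protein-coding genes, under 6 rules that differ in the list and the distance (x axis). Error bars are exact 95% binomial intervals over genes; both subunits stand above the grey bar of all genes under each of the 6 rules.

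The strongest member was RpS27, a small subunit protein gene at chr3R:25245955-25247514, whose summit lay 2 bp after a start and ranked 33 of the 7944 IDR peaks by the authors' signal. It ranked 46 in replicate 1 and 22 in replicate 2. RpL7, at chr2L:10201004-10202321, came next at rank 42, with rank 53 in replicate 1 and 26 in replicate 2. RpL14, at chr3L:8601006-8602392, ranked 68 and stood at 94 and 56 in the replicates. The 3 genes were thus near the top of both replicate lists, which are each 30000 peaks long.

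RpL23A, whose protein sits at the exit of the peptide tunnel, ranked 79, with 107 in replicate 1 and 61 in replicate 2. RpL41, which encodes a very short peptide of the large subunit, ranked 124, with 187 and 82. RpS4 ranked 128, with 238 and 66, and RpL30 ranked 134, with 170 and 106. Each of these 4 genes stood higher in replicate 2 than in replicate 1.

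RpS28b ranked 178, with 316 in replicate 1 and 97 in replicate 2, and RpS16 ranked 201, with 245 and 158. RpL34b ranked 216, with 210 and 240, and stood higher in replicate 1, unlike the other 13 of the 15 strongest that had a rank in both lists. RpL13A ranked 225, with 328 and 132. RpL11, a partner of RpL5 and 5S RNA in the assembling large subunit, ranked 238, with 283 and 202. RpS25 ranked 255, with 332 and 177, and RpL22 ranked 260, with 326 and 199. RpL28 ranked 256 and had no summit in replicate 1.

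Over the 72 members with an IDR peak the median rank was 963, beside 2644.5 for all protein-coding genes with one. The median was 812 for the large and 1069 for the small subunit, with ranges of 42 to 4737 and 33 to 6624 that overlap almost fully. The median signal was 598, beside 335 for all genes with a peak, on a scale the authors do not state. The peaks were 310 bp wide at the median, beside 243 bp. All 72 carried the highest −log10 q-value of the list, as did 92.6% of all genes with a peak.

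**Figure D2:**
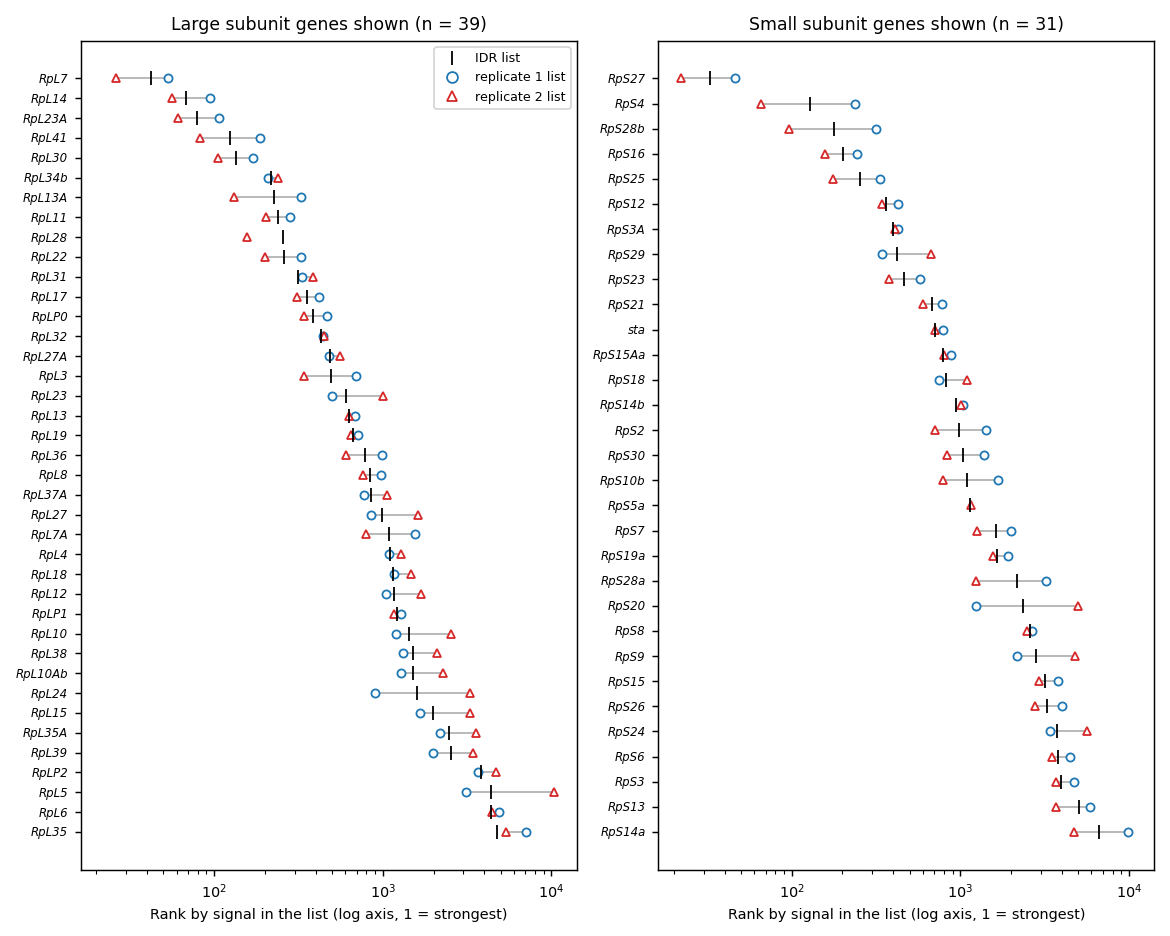
Rank by signal (x axis, log scale, 1 is the strongest) of the ADD1-GFP summit at 39 large subunit and 31 small subunit genes with an IDR peak (y axis), in the IDR list and in the 2 replicate lists of 30000 peaks each. Grey lines join the replicates; RpL28 and RpS5a have no replicate 1 mark because no summit of that list lay within 200 bp of their IDR summit.

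The replicates could be compared at 70 members, where each replicate list had a summit within 200 bp of the IDR summit. The median rank was 984.5 in replicate 1 and 917 in replicate 2, and 44 of the 70, or 62.9%, stood higher in replicate 2, beside 48.4% of all genes with a peak. The ratio of the ranks had a median of 1.59, beside 1.5, and passed 2 at 16 members, or 22.9%, beside 27.3%. The replicate summits lay at a median of 4 bp (replicate 1) and 5 bp (replicate 2) from the IDR summit. In RpS27 the summits of the replicates lay 2 and 7 bp after the start, and in RpS4 3 and 2 bp after it.

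The largest rank difference was that of RpL5, a 5S RNA-binding protein gene, with rank 3126 in replicate 1 and 10411 in replicate 2. RpS14a had 9926 and 4744, RpS20 1240 and 5017, RpS9 2178 and 4785, and RpL24 897 and 3278. Of these 5 genes RpS14a alone was higher in replicate 2. RpL28, a large subunit gene, ranked 156 in replicate 2 with a summit 21 bp upstream, and RpS5a ranked 1151 with a summit 2 bp downstream, yet the list of replicate 1 held no summit within 2000 bp of either. Both are in the IDR list, at ranks 256 and 1142, and that list equals the 7944 strongest peaks called on both alignments together. Around RpL28, 1.84% of the 50-base words within 150 bp of its starts occurred elsewhere in the genome, and around RpS5a 0%; the part of this in the missing summits was not tested.

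The summits sat close to the start. The median offset over the 72 members was −2 bp, negative being upstream, with the middle part of the values from −35 to 13 bp. It was −7.5 bp in the strongest 7944 peaks of replicate 1 alone and −8 bp in those of replicate 2. All protein-coding genes with a peak had a median of −54 bp. The summit lay within 50 bp of the start in 55 of the 72 members, or 76.4%, beside 39.5%, and within 100 bp in 69, or 95.8%, beside 61.2%. It lay upstream in 39 members, or 54.2%, beside 75.9% of all genes with a peak. The median offset was −11.5 bp for the large subunit, from −97 to 34 bp, and 2.5 bp for the small subunit, from −189 to 486 bp.

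Part of this measure rests on the annotation. Members have a median of 2 annotated starts, beside 1 for all genes, and the nearest start was used. In genes with 1 annotated start, the median distance was 28.5 bp over 32 members, beside 67 bp over 1916 genes, and the median offset −25 bp, beside −58 bp. Measured from the C of the TCT word, the median offset was −14.5 bp over 42 members with the word at the start used. The start nearest to the summit was a start of the member itself in 70 of the 72, or 97.2%, beside 80.2% of all genes with a peak. The exceptions were RpS28a, whose summit lay nearer to Mgat2, and RpS20, whose summit lay nearer to CG17271.

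The 5 summits farthest from a start were those of RpS28a at 486 bp downstream, RpS20 at −189 bp, RpS3 at 101 bp, RpL23A at −97 bp and RpL23 at −92 bp. RpS28a was thus just inside the 500 bp limit, and the next IDR summits beyond it were those at −615 bp of RpL26 and −642 bp of RpL40. A further IDR summit lay within 500 bp in 6 of the 72 members, or 8.33%, beside 17.8%. In RpS19a, RpS21, RpS23 and RpS27 it lay more than 400 bp away from the start, with an offset of 478 bp in RpS27 and −460 bp in RpS23.

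**Figure D3:**
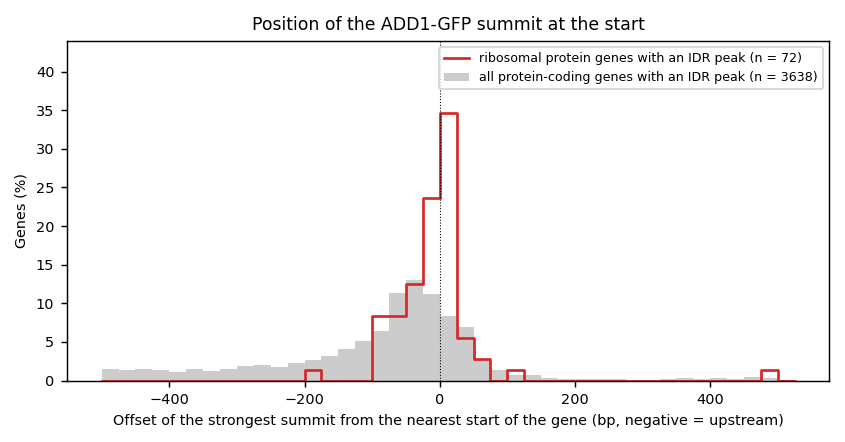
Offset of the strongest ADD1-GFP summit from the nearest annotated start of the gene (x axis, bp, negative is upstream) against the share of genes (y axis, %), for the 72 ribosomal protein genes with an IDR peak and for all 3638 protein-coding genes with one. The red outline is narrow and stands at the start, with a median of −2 bp, where the grey distribution has a median of −54 bp and a long upstream side.

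Some members with special protein products were described whatever their rank. RpS27A and RpL40 encode ribosomal proteins fused to ubiquitin, and neither had an IDR peak within 500 bp. The stalk of the large subunit, which recruits translation factors, is built of the products of RpLP0, RpLP1 and RpLP2. RpLP0 ranked 387, with 469 in replicate 1 and 343 in replicate 2, RpLP1 ranked 1208, with 1288 and 1170, and RpLP2 ranked 3825, with 3690 and 4666. RpLP2 was thus the weakest of the stalk genes in both replicates.

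RpS6, whose protein is the classic substrate of S6 kinase, ranked 3785, with 4497 and 3492 in the replicates. RpL10, whose protein is placed late in large subunit assembly in yeast, ranked 1428, with 1190 and 2547. The gene sta ranked 711, with 789 and 710, and its summit lay 51 bp upstream. RpS3A, the one member on chromosome 4, ranked 398, with 425 and 408 and a summit 28 bp upstream. Chromosome 4 is small and largely heterochromatic, and 57.5% of its protein-coding genes had an IDR peak at a start.

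The peaks were found on every arm. On X all 14 members had one, where 28.6% of the protein-coding genes of X did, and on 3L 13 of 14 had one, beside 27.9%. The counts were 15 of 18 on 2R, beside 25.9%, 17 of 22 on 3R, beside 24.0%, and 12 of 17 on 2L, beside 24.2%. Ribosomal protein genes often hold small nucleolar RNA genes within their introns. An annotated snoRNA gene lay inside 29 members, or 33.7%, beside 0.625% of all protein-coding genes. An IDR peak was found at 27 of those 29 and at 45 of the other 57, beside 26.1% of all protein-coding genes. The share over all protein-coding genes that hold a snoRNA gene is not given here. A link between snoRNA genes and binding was not tested.

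The 14 members without an IDR peak comprised 8 genes of the large and 6 of the small subunit. A summit was present in both replicate lists for 5 of them, in replicate 1 only for 2, in replicate 2 only for 4 and in neither for 3. In the list called on both alignments together, 6 of them had a summit within 500 bp. RpL26 ranked 7977 there, just past the last rank of the IDR list, RpS19b ranked 8333, RpL21 8471, RpS5b 13012, RpL40 25675 and RpS10a 26534. Among members with an IDR peak, the weakest was RpS14a at rank 6624.

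RpL21 ranked 6243 in replicate 1 and 18703 in replicate 2, with summits 14 bp upstream and 11 bp downstream of the start. RpL26 ranked 5610 with a summit 10 bp downstream in replicate 1 and 5693 with one 128 bp downstream in replicate 2, and its IDR peak at −615 bp ranked 1680. RpL40 ranked 13809 with a summit 21 bp downstream in replicate 1 and 21371 with one 238 bp downstream in replicate 2, and its IDR peak at −642 bp ranked 4026. Of the summits within 500 bp, the strongest thus lay within 50 bp of the start in both replicates in RpL21. In RpL26 and RpL40 it did so in replicate 1 alone. Both replicates had a stronger summit farther out, at −634 and −601 bp in RpL26 and at −642 bp in RpL40.

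Other members were found in a single replicate list. RpS27A ranked 1143 in replicate 2, with a summit 4 bp upstream, while the nearest summit of replicate 1 lay 5050 bp away. In the list called on both alignments together the nearest summit also lay 5050 bp away. RpL9 ranked 2910 in replicate 2 at −12 bp, and its nearest summit in replicate 1 lay at −706 bp. RpL29 ranked 8337 in replicate 2 at −48 bp. RpS15Ab was the opposite case, with rank 5735 in replicate 1 at −3 bp and no summit within 500 bp in replicate 2. RpL36A had none in any list, and the nearest summit of the IDR list lay 7934 bp away.

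An IDR peak was found at 55 of the 61 members with a TCT word within 10 bp of a start, or 90.2%, and at 17 of the 25 without, or 68.0%. Among the other protein-coding genes it was found at 153 of 361 with the word, or 42.4%, and at 25.3% of those without. The median rank of members with a peak was 946 with the word and 980 without. The 6 members that had the word and no IDR peak were RpL21, RpL29, RpL40, RpL9, RpS27A and RpS5b.

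Several ribosomal proteins are encoded by a pair of copies, and in most pairs examined ADD1 summits stood at one of them. The pairs were formed by symbol, so a hyphenated copy need not encode the same ribosomal protein. Of 14 pairs, in which RpS28b takes part in 2 and some copies carry hyphenated symbols, 11 had an IDR peak at one copy, 3 at both and 0 at neither. Over all protein-coding genes 26.1% had an IDR peak, so a copy without one is no exception among genes at large. The bound copy held the TCT word within 10 bp in 8 of the 11, and the other copy in 3 of the 11. The starts of 5 such pairs, and of RpS14a and RpS14b, are shown because the copies can be compared letter by letter around the start. They run from 40 bases before the start to 20 bases after it, with capitals as above, and RpL34b stands in the set shown earlier.
RpL10Ab, chr3L:11822811-11822870, plus strand: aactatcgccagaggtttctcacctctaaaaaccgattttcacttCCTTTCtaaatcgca
RpL10Aa, chr3R:15037326-15037385, plus strand: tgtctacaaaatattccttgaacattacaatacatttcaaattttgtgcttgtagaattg
RpL34a, chr3R:26059248-26059307, minus strand: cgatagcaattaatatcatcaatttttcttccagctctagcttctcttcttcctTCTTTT
RpS5a, chrX:17148245-17148304, minus strand: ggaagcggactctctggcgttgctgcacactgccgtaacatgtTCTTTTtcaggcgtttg
RpS5b, chr3R:14901544-14901603, minus strand: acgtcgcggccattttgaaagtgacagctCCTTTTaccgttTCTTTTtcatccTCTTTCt
RpS10b, chrX:19598000-19598059, plus strand: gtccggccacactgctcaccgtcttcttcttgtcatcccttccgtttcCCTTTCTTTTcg
RpS10a, chr3R:27652720-27652779, plus strand: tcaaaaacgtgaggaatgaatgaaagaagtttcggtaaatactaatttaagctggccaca
RpS19a, chrX:16637854-16637913, plus strand: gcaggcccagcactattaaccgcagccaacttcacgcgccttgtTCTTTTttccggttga
RpS19b, chr3R:23933511-23933570, minus strand: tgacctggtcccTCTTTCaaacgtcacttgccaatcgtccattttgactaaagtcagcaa
RpS14a, chrX:7933702-7933761, plus strand: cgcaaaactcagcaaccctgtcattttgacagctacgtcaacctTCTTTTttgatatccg
RpS14b, chrX:7934858-7934917, plus strand: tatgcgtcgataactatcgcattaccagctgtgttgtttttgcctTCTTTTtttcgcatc

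RpL10Ab had an IDR peak at rank 1519, with rank 1289 in replicate 1 and 2276 in replicate 2, and RpL10Aa had no summit in either list. RpL34b ranked 216, and RpL34a had no summit within 500 bp in either replicate. RpS10b ranked 1094, with 1670 and 792, and RpS10a was listed in replicate 1 only, at rank 29160. The stretches of RpL10Aa and RpS10a held no TCT word, and that of RpL34a held one at its end, more than 10 bp after the start.

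RpS15Aa ranked 790, with 880 and 797, and RpS15Ab stood at 5735 in replicate 1 only. RpS19a ranked 1645, with 1922 and 1558, and its copy RpS19b, known for expression in germ cells, stood at 5667 and 11867 with summits at −375 and −473 bp. RpS5a ranked 1142, with rank 1151 in replicate 2 only, and RpS5b, known for its expression in the ovary, stood at 15933 and 13823. In this last pair each copy held a TCT word, and replicate 1 alone listed RpS5b without RpS5a. A missing summit gives no rank, so no order of RpS5a and RpS5b can be read from replicate 1.

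RpL37-1 ranked 2705, with 2714 and 3056, and RpL37-2 had no summit in either list although it held a TCT word. RpL22 ranked 260 and RpL22-like, known for expression in the germ line, had no summit in either list. RpL7 ranked 42 and RpL7-like was listed in replicate 2 only, at 12755. RpL24 ranked 1596 and RpL24-like was listed in replicate 2 only, at 7944. RpL24-like and RpLP0-like have counterparts in yeast that act in ribosome assembly and are absent from the mature ribosome. RpS28-like had no summit within 500 bp.

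Both copies had an IDR peak in 3 pairs. RpS14a and RpS14b lie next to each other on X with starts 1156 bp apart. RpS14b ranked 946, with 1043 and 1005, and RpS14a ranked 6624, with 9926 and 4744. Of the 50-base words around the starts of RpS14b 11.7% occurred elsewhere in the genome, so reads from that part could match more than 1 place. RpS28a ranked 2173 only through its summit 486 bp downstream, nearer to another gene. In replicate 2 its strongest summit within 500 bp lay at −126 bp with rank 954, and replicate 1 had none within that distance. RpLP0 ranked 387 and RpLP0-like 473, with 736 and 262 for the latter in the replicates, and its nearest start belonged to 14-3-3zeta. For all other copies in the pairs the share of repeated 50-base words was 0%.

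**Figure D4:**
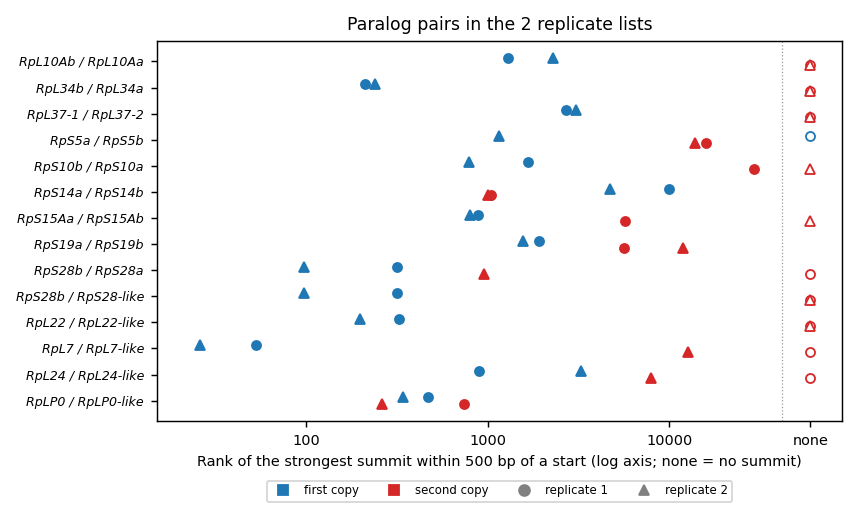
Rank (x axis, log scale) of the strongest ADD1-GFP summit within 500 bp of a start in the 2 replicate lists, for the first and second copy of 14 pairs of genes with related symbols (y axis). Open symbols at the right mark a copy with no summit in that list. In the pairs of RpL10Ab, RpL34b, RpL37-1, RpL22 and of RpS28b with RpS28-like, the first copy is listed in both replicates and the second in neither.

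Words known for factors that bind promoters were counted next, on both strands within 100 bp of the IDR summit. TATCGATA, bound by DREF, lay there in 18 of the 72 members with a peak, or 25%, beside 10.4% of all protein-coding genes with a peak. It lay upstream of the start in 16 of the 18, at a median of −51.5 bp, and 28.5 bp from the summit at the median. Some examples are shown in which the word lay no farther from the summit than this median. Other members in which it lay as close or closer are not shown. Each is 51 bases with the word in capitals, on the strand of the gene.
RpS25, chr3R:11216317-11216367, minus strand: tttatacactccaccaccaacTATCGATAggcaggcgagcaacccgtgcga
RpS12, chr3L:13023289-13023339, plus strand: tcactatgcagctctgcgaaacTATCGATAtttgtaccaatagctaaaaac
RpS15Aa, chrX:13337684-13337734, minus strand: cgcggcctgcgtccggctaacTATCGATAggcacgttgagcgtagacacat

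The word was centred 17.5 bp from the summit in RpS25, 28.5 bp in RpS12 and 26.5 bp in RpS15Aa, genes with ranks of 255, 362 and 790. In RpL41 it lay 7.5 bp from the summit, which was the shortest distance among the 18.

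GGTCACACT, a core of the word bound by M1BP, lay near the summit in 10 members, or 13.9%, beside 6.40%, and upstream of the start in 9 of the 10, at a median of −13.5 bp. CACGTG, the E-box that Myc and Max bind, lay there in 7 members, or 9.72%, beside 3.16%, and upstream in 2 of the 7, at a median of 35.5 bp downstream. The strong members RpL7, RpS4 and RpS28b held it at 18.5, 63.5 and 47.5 bp after the start, and RpL11, also among the 15 strongest, at −43.5 bp. At least 1 of the 3 words was present in 33 of the 72, or 45.8%, beside 19.0%. GAGAGAG, a word of GAGA factor, was found in 0 of the 72, beside 5.61%.

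The same words were counted within 100 bp of any start, in all 86 members and without regard to peaks. TATCGATA was present in 24 members, or 27.9%, beside 8.51% of all protein-coding genes. GGTCACACT was present in 9, or 10.5%, beside 5.86%. CACGTG was present in 18, or 20.9%, beside 3.69%, and GAGAGAG in RpS19a alone, or 1.16%, beside 5.85%. A match of letters does not show that a factor was bound.

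**Figure D5:**
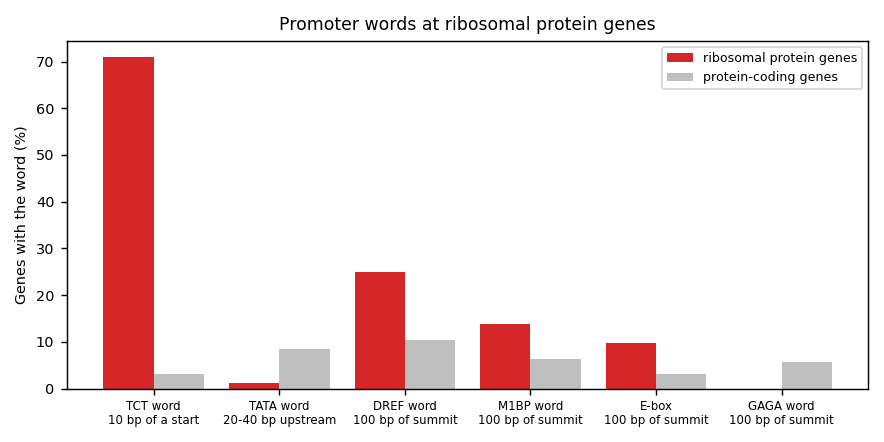
Share of genes (y axis, %) with each of 6 promoter words (x axis) among ribosomal protein genes and among protein-coding genes. The first 2 words are counted around the starts of all genes, the other 4 within 100 bp of the IDR summit in genes with a peak; the TCT word stands at 70.9% of members beside 3.03%, and the GAGA word at 0 of 72.

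Genes that work with ribosomes but do not encode ribosomal proteins of the cytoplasm were counted in the same way, beside 26.1% of all genes and 83.7% of the members. The ribosomal proteins of mitochondria, encoded in the nucleus, had an IDR peak at 31 of 73 genes, or 42.5%, with a median rank of 2200 and a median offset of −82 bp. A TCT word was present at 2 of the 73. Translation initiation and elongation factors had a peak at 21 of 52, or 40.4%, with a median rank of 926 and offset of −41 bp, and the word at 7. Genes of ribosome biogenesis had a peak at 9 of 26, or 34.6%, with a median rank of 578 and offset of −67 bp, and the word at 2. These differences between gene lists were not tested.

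Single genes of these lists were among the strongest of all. The summit at mRpS23 ranked 1 in the IDR list, with an offset of −388 bp, and that at mRpS10 ranked 34. Whether another gene had a start nearer to the summit at mRpS23 is not given here. Over all protein-coding genes with a peak, 722 of 3638 had a summit nearer to a start of another gene. eIF6, which keeps large subunits from joining small ones too early and belongs to both the factor and the biogenesis list, had rank 5. The summit of rank 256 at RpL28 also lay at −360 bp from the start of eIF1. Rack1, a scaffold protein on the small subunit, ranked 292 with a summit 1 bp upstream and a TCT word at its start. Nacalpha and bic, which encode the nascent polypeptide-associated complex at the ribosome, ranked 244 and 2267.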

How the data were processed

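ADD1-GFP binding was measured by ChIP-seq in 2 biological replicates of whole embryos. Per the deposited descriptions, the authors called peaks on assembly dm6 for each replicate with a control and for both together, and derived an IDR list from these. The caller, aligner, IDR threshold and read numbers were not given in the sources used here. Depth is therefore unknown. Peaks carry a deposited signal on an unstated scale, which was used only within a list. The deposited −log10 q-value was at its highest in most peaks. The replicate lists and the joint list hold 30000 peaks each, and the IDR list is the 7944 strongest of the joint list.

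Starts came from Ensembl release 115 with FlyBase annotation 6.54, and sequence from RefSeq Release 6. Transposable elements and precursor entries were left out. The strongest summit within 500 bp of any start was taken, with its offset from the nearest start of that gene. Ranks in replicates used summits within 200 bp of the IDR summit. Lists are described by counts beside all protein-coding genes, with no test and no p-value. Intervals are exact Clopper-Pearson 95% intervals and cover counting error only. The members, words and related lists were chosen with earlier results of these data known. Members named are the 15 strongest, those without an IDR peak, those in pairs, that on chromosome 4, the 5 with the largest rank difference, the 5 farthest summits and 8 fixed genes; others were chosen after their values were seen. The single values of 3 members are not reported here, though all counts and medians include them. Listed names missing from the annotation were dropped, and sta was counted only as a member. The assignment was tested on simulated summits. Python 3.11.15, numpy 2.4.6, scipy 1.17.1 and matplotlib 3.10.9 were used. The alternatives were each replicate alone, the stronger 3972 IDR peaks, the joint list, other distances, the nearest start of any gene, any overlap of the interval, isolated genes and added copies.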

Additional observations from a re-analysis of the deposited data

How the results depend on the processing

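Of 56 alternative values over 9 results, 46 stayed within the limits set (1.5 times for a count) and 10 moved. The count of 72 members with an IDR peak lay between 66 and 78 under the other lists, distances and assignments that keep all 86 genes, and was 74 of 93 with the hyphenated copies added. Another gene had a start within 1000 bp in 79.1% of members, beside 48.2% of all protein-coding genes. When these were left out only 18 members remained, which is fewer by construction. Of the 18, 14 had a peak, or 77.8%, beside 1396 of the 7218 protein-coding genes without such a neighbour. By subunit this was 7 of 8 of the large and 7 of 10 of the small. The median offset of −2 bp became −3 bp with 200 bp, −8.5 bp with 1000 bp, −4 bp in the stronger 3972 peaks and −6.5 bp in the joint list. The cause was not tested. With 50 bp around the summit, 19 of 72 members held TATCGATA, GGTCACACT or CACGTG, which is a smaller window by construction.

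Leaving out 1 replicate gave 72 to 75 members with a peak, 41 for the large and 31 to 34 for the small subunit. It gave 36 to 37 members among the 1000 strongest, 43 to 46 with an upstream summit, 10 split pairs in either case and a median offset of −8 to −7.5 bp. No paired analysis was possible because the series has 1 group. The split pairs numbered 8 to 12 under the other settings. Counted at the start nearest the summit alone, the TCT word was present in 42 of 72 members. Depth is unknown, so a missing summit does not show absence of binding.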

Other observations

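A search for words of 8 letters was made after the promoters had been seen, so its result is a description only. It covered 150 bases before to 20 bases after the starts, with each word and its reverse complement counted as 1, and 98 words were present in at least 8 members. Of the 10 words most over-represented beside all protein-coding genes, 7 consisted of purines or pyrimidines only. ACCGGAAA was present in 9 members, or 10.5%, beside 0.596% of all genes, and CCAACTTC in 9, or 10.5%, beside 0.797%. The second can be read upstream of the start in the stretches of RpS28b, RpL28 and RpS19a. Outside the ribosomal protein genes the TCT word within 10 bp of a start was present in 361 protein-coding genes, of which 153 had an IDR peak, with a median rank of 2106.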
